A study of Mus musculus with 61 samples.

Results

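Il10, the gene of the anti-inflammatory cytokine IL-10, and 4 transcription factor genes studied as regulators of it, Prdm1, Nfil3, Bhlhe40 and Maf, were followed in mouse CD4 T cells stimulated without or with IL-27. The 5 genes were taken by symbol from the annotation of the arrays, and each was measured by 1 probe set, so 5 of 22626 probe sets and 5 of 12291 named genes are described. By its title, the series asks which regulators act on IL-10 expression when IL-27 drives naive cells towards type 1 regulatory (Tr1) cells. The 61 Affymetrix arrays hold naive CD4 T cells of the strain C57BL/6, cultured with anti-CD3 at 1 µg/ml and a second antibody at 1 µg/ml that the labels write as anti-CD8. IL-27 at 25 ng/ml and the name Tr1 cells stand in the label text of every sample, control arrays included. The arm, ctrl or IL27, was therefore read from the titles, and so was the time, a bare number taken here as hours. The HT_MG-430A set covers 18 times between 0.5 and 72 h and holds 52 arrays, 26 in each arm. Both arms have 2 arrays each at 8 of the times and a single one each at 10. In each pair of arrays, the title of 1 of them ends in a suffix d that the labels do not explain. The Mouse430A_2 set holds 9 arrays, which are 1 ctrl array at 0 h, a ctrl and an IL27 array for each of 4, 16 and 48 h, and 2 arrays named GFPP-48 and GFPN-48, names the labels do not explain. No label says that arrays came from separate cultures or animals, so the p-values rest on the spread between arrays, which may be technical.

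IL-10 is secreted by several T helper subsets and by Tr1 cells, a type without Foxp3, and it restrains inflammation by acting on antigen-presenting cells and T cells. IL-27 is a cytokine of the IL-12 family that signals through a receptor of IL-27Rα and gp130. Prdm1 encodes Blimp-1, a transcriptional repressor that drives terminal differentiation of lymphocytes, Nfil3 a basic leucine zipper factor also known as E4BP4, Bhlhe40 a basic helix-loop-helix repressor, and Maf a basic leucine zipper factor. Prdm1, Nfil3 and Maf are known to favour Il10 transcription in T cells, and Bhlhe40 is known to restrain it.

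On build GRCm38.p6 Il10 lies at chr1:131019845-131024970, Prdm1 at chr10:44437174-44528558, Nfil3 at chr13:52967209-52982878, Bhlhe40 at chr6:108660629-108666925 and Maf at chr8:115703253-115706894. The upstream sequences of Prdm1 and Nfil3, the regulators that were higher with IL-27 at late times, are shown for the difference in their CG content. Each is 250 bases upstream of the start site listed in the RefSeq promoter table, 5′ to 3′ on the minus strand, with CG dinucleotides in capitals. Both stretches lie inside the annotated span of their gene, so each belongs to 1 start site of it. Il10, Bhlhe40 and Maf were not in the table.
Nfil3, chr13:52981040-52981289: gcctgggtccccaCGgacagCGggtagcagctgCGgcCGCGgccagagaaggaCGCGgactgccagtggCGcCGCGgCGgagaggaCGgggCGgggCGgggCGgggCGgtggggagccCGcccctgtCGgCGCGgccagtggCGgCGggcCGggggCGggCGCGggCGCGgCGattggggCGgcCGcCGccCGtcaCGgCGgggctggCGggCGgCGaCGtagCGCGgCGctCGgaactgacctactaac
Prdm1, chr10:44458749-44458998: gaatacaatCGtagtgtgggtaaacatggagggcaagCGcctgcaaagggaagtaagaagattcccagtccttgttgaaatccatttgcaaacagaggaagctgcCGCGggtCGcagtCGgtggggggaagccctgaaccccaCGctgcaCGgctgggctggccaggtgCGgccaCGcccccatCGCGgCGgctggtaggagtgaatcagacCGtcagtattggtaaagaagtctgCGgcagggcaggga
The Nfil3 stretch holds 43 CG dinucleotides and 81.6% G or C. The Prdm1 stretch holds 15 CG dinucleotides and 59.2% G or C. Of 32851 promoters of the same length, 0.71% hold at least as many CG dinucleotides as Nfil3 and 27.31% at least as many as Prdm1, beside a median of 6. On both strands of the 300 bases around each start site, none of 5 motifs was found in either gene. They were the STAT site TTCNNNGAA, in 8.30% of all promoters, the E-box CACGTG, in 7.15%, the NFIL3 sites TTATGTAA and TTACGTAA, in 1.06%, the MAF site TGCTGA, in 19.5%, and the PRDM1 core GAAAGT, in 14.3%. These are matches of letters in 1 window and say nothing of binding.

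Values are intensities on a linear scale, as deposited, for which the submitters' processing notes name MAS5. A probe set is dim where it lies under the median of its array, which was 28.0 to 36.6 on HT_MG-430A and 70.7 to 78.9 on Mouse430A_2. Intensities of different probe sets are not compared, since their binding differs. Of the 52 HT_MG-430A arrays, Bhlhe40 lay above the array's median on 52, Nfil3 on 33, Prdm1 on 17, Il10 on 5 and Maf on 0. A gene was tested where at least 5 arrays were above their median, so Maf was not tested. Il10 passed at the limit, through arrays of the IL27 arm alone. Prdm1 passed with 14 IL27 and 3 ctrl arrays, so its entry into the test also rested on the IL27 arm. Differences are on the log2(intensity + 32) scale with their standard error, which understates changes of dim genes, and adjusted p-values come from limma with Benjamini-Hochberg adjustment over all genes. A gene was called at an adjusted p under 0.05. The 18 times were grouped into an early window (0.5 to 4 h, 5 arrays per arm) and a middle window (8 to 20 h, 9 per arm). The remaining times formed a late window (25 to 72 h, 12 per arm). In tests of a window, the spread also includes variation of the IL27 effect between its times. It is 1 estimate per gene over all 52 arrays, not that of the window alone.

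Il10 was at the level of a dim probe set in both arms until 20 h and rose with IL-27 in the late window. In ctrl arrays of the late window its lowest, median and highest intensities were 8.81, 10.1 and 12.1. In IL27 arrays they were 15.1, 31.0 and 75.01. The ranges of the arms did not overlap there, yet only 5 of the 12 IL27 arrays lay above their own median, those at 42, 48, 54, 60 and 72 h whose titles lack the suffix d. The late difference was 0.64 ± 0.07 (SE, n = 12 arrays per arm, adjusted p = 2.4e-08, limma), and 1325 of 7163 genes tested, or 18.5%, were called late. With no filter on low values, so that its entry into the test did not depend on the IL27 arm, Il10 was called late as well (0.64, adjusted p = 2.0e-08). Fewer cells that make a transcript and less RNA per cell cannot be told apart in such bulk samples.

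Early, Il10 read 9.24, 10.3, 11.5, 11.5 and 12.5 in ctrl arrays and 10.2, 9.83, 12.5, 9.74 and 14.7 in IL27 arrays. The arms overlapped, and the early difference was 0.01 ± 0.11 (adjusted p = 0.998, limma). Of all genes tested, 2.32% were called early, and among the 4 members tested the count was 0. In the middle window Il10 ran from 9.30 through 10.3 to 11.3 in ctrl arrays and from 9.83 through 11.7 to 13.5 in IL27 arrays. That difference was 0.05 ± 0.09 (adjusted p = 0.77, limma), in a window where 10.7% of genes were called. The effect itself was larger late than early by 0.62 ± 0.14 (adjusted p = 0.0027, limma), a contrast that called 7.09% of genes. Late minus middle it was larger by 0.59 ± 0.11 (adjusted p = 0.00060, limma), where 8.11% of genes were called. The late minus early call was lost without the arrays at 2 h (0.61, adjusted p = 0.055), and both calls were lost within the arrays of suffix d alone (0.50, adjusted p = 0.21, and 0.41, adjusted p = 0.17).

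Time by time, the IL27 arrays stood at 15.1 at 25 h, 17.1 and 16.8 at 30 h, 27.8 at 36 h, 37.7 and 33.5 at 42 h, 58.7 at 48 h, 43.9 and 28.5 at 54 h, 52.4 at 60 h, and 75.01 and 21.7 at 72 h. The second value of each pair is from the array with suffix d, and the 72 h pair lay furthest apart. The ctrl arrays stayed at 12.1 or less throughout these times. Tested singly, with p-values adjusted over all genes and all 18 times together, 3.29% of the gene-by-time tests were called. Il10 was called at 42, 48, 54, 60 and 72 h, where the IL27 means were 35.6, 58.7, 36.2, 52.4 and 48.4 and the ctrl means 11.0, 10.4, 10.4, 10.1 and 9.12. At 48 and 60 h these values are from 1 array per arm. Every single-time test of a gene used 1 spread, estimated over the paired arrays of all times and both arms. For Il10 most of these arrays were dim, so the p-values do not measure the spread at late times. Il10 was at most 0.393 times the array's median on every ctrl array, so no fold is given. The calls at 42 and 54 h were lost with a pseudocount of 100 (adjusted p = 0.10 and 0.082).

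**Figure D1:**
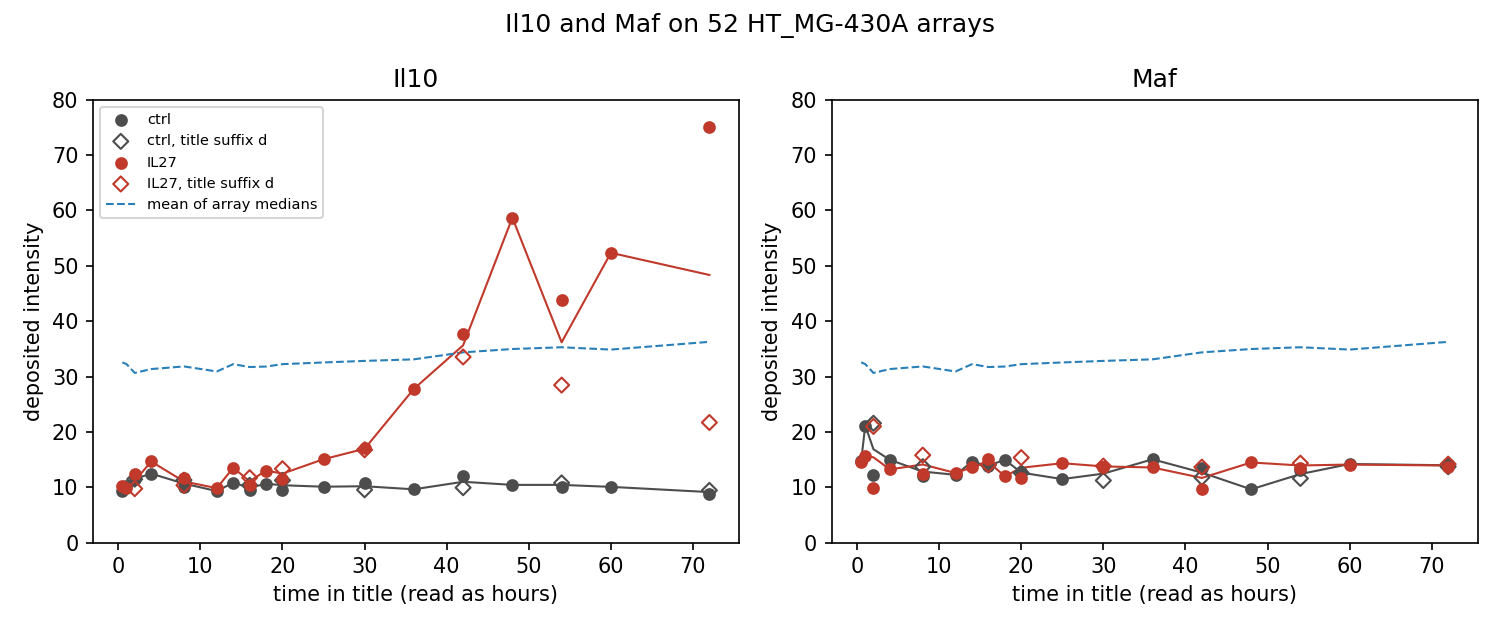
Deposited intensity of Il10 (left) and Maf (right) against the time in the title, read as hours, for each of 52 HT_MG-430A arrays. Filled circles are arrays without and open diamonds arrays with the title suffix d, grey for ctrl and red for IL27, lines join the means of each time, and the blue dashed line is the mean of the array medians. Il10 in the IL27 arm lies above the ctrl arm from 25 h on and passes the line of the medians on 5 arrays, while Maf stays under it in both arms.

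Maf stayed under the array's median on all 52 HT_MG-430A arrays. Its lowest, median and highest intensities were 9.62, 13.3 and 15.0 in late ctrl arrays and 9.73, 13.8 and 14.5 in late IL27 arrays. The highest value of all was 21.6, in a ctrl array at 2 h. The arms overlapped in every window. Its probe set carries the gene name in the Mouse430A_2 annotation alone and has no transcript accession there, so its readings do not show whether Maf RNA was present.

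Prdm1 had a first phase in the opening hours, a low middle and a second phase at late times that was seen in the IL27 arm. Early ctrl arrays read 62.1 at 0.5 h, 54.4 at 1 h, 42.3 and 25.0 at 2 h and 26.5 at 4 h. Early IL27 arrays read 136 at 0.5 h, 327 at 1 h, 101 and 40.6 at 2 h and 27.5 at 4 h. At each early time the IL27 mean was the higher one, though the ranges over the window overlapped. The window's difference was 0.82 ± 0.31 and did not pass the test (n = 5 arrays per arm, adjusted p = 0.23, limma). At 1 h alone, with 1 array per arm, Prdm1 was called higher by 2.05 ± 0.55 (adjusted p = 0.041, limma), a spread taken from other times. That call was lost with a pseudocount of 1 (adjusted p = 0.090) and with no filter (adjusted p = 0.055).

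Late, Prdm1 ran from 12.2 through 14.9 to 32.03 in ctrl arrays, all under their medians, and from 22.1 through 65.4 to 454 in IL27 arrays, 9 of 12 above. The ranges overlapped, since the 72 h ctrl array without suffix d reached 32.03 and 3 IL27 arrays before 54 h lay below that. The late difference was 1.28 ± 0.20 (n = 12 per arm, adjusted p = 6.2e-06, limma), with the IL27 mean higher at 8 of 8 times. Single times were called at 54, 60 and 72 h. The IL27 means there were 148, 217 and 299 and the ctrl means 13.4, 22.2 and 23.6, the latter too dim for a fold. The values at 60 h are from 1 array per arm. The 60 h call was lost with a pseudocount of 100 (adjusted p = 0.052). At 48 h the IL27 array read 125 against 15.5, a difference of 1.72 ± 0.55 that was not called (adjusted p = 0.11, limma).

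Between them, the middle window held Prdm1 at 12.2 to 19.3 in ctrl and 15.3 to 45.5 in IL27 arrays, with a difference of 0.20 ± 0.23 (adjusted p = 0.62, limma). The highest of these values, 45.5, was the 1 array at 18 h, where ctrl read 13.04. The effect was larger late than middle by 1.08 ± 0.31 (adjusted p = 0.021, limma). It did not differ between late and early by the test (0.46 ± 0.37, adjusted p = 0.54, limma). The late minus middle call was lost without the arrays of suffix d (adjusted p = 0.085), within them (adjusted p = 0.29) and without the times 8, 16, 54 or 72 h (adjusted p = 0.053 to 0.066).

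Late Prdm1 differed between the paired arrays of 1 time. Without and with suffix d the IL27 arm read 26.9 and 32.9 at 30 h, 68.7 and 22.1 at 42 h, 235 and 62.0 at 54 h, and 454 and 144 at 72 h. The array with suffix d was the lower one in 3 of 4 late pairs of the IL27 arm and in 4 of 4 of the ctrl arm. The late difference was 1.45 without those arrays (adjusted p = 0.00070) and 0.94 within them (adjusted p = 0.031). Il10 was lower on the suffix d array in 4 of 4 late IL27 pairs, with late differences of 0.74 without them (adjusted p = 2.8e-05) and 0.44 within them (adjusted p = 0.0095). Nfil3 was lower with suffix d in 1 of 4 late pairs of either arm.

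Nfil3 rose with IL-27 in the late window. Late ctrl arrays ran from 17.4 through 144 to 403, and late IL27 arrays from 59.7 through 603 to 1319, all 12 above their medians. The ranges overlapped because both arms climbed over the window, but at each of the 8 late times every IL27 array was above every ctrl array. The difference was 1.68 ± 0.09 (adjusted p = 2.9e-16, limma), and Nfil3 ranked 2 of 7163 genes by p. For the change of the effect it ranked 1, both late minus early (1.62 ± 0.17, adjusted p = 9.0e-08, limma) and late minus middle (1.56 ± 0.14, adjusted p = 2.5e-09, limma).

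The arms stood apart while ctrl arrays were still under their medians. At 25 h ctrl read 21.3 and IL27 59.7, and at 30 h ctrl read 17.4 and 18.5 against 113 and 124. At 36 h the values were 52.8 and 312, at 42 h 101 and 127 against 457 and 372. At 48 h the ctrl array reached the arm's highest value, 403, against 749. At 60 h, with 1 array per arm, the values were 247 and 1319, and at 72 h the means were 279 and 1247. Nfil3 was called at 7 of 8 late times, from 30 to 72 h. The 48 h call, with 1 array per arm, was lost with a pseudocount of 1 (adjusted p = 0.23) and with no filter (adjusted p = 0.080).

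Before 25 h the ranges of the arms overlapped. Early ctrl arrays read 249 at 0.5 h, 162 at 1 h, 52.4 and 38.4 at 2 h and 29.1 at 4 h. Early IL27 arrays read 255, 208, 49.6 and 34.3, and 34.7 at the same times. The early difference was 0.07 ± 0.14 (adjusted p = 0.97, limma). Middle values were 19.0 to 39.0 in ctrl and 19.4 to 58.5 in IL27 arrays, with a difference of 0.12 ± 0.11 (adjusted p = 0.49, limma), the highest of each arm being its 18 h array.

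**Figure D2:**
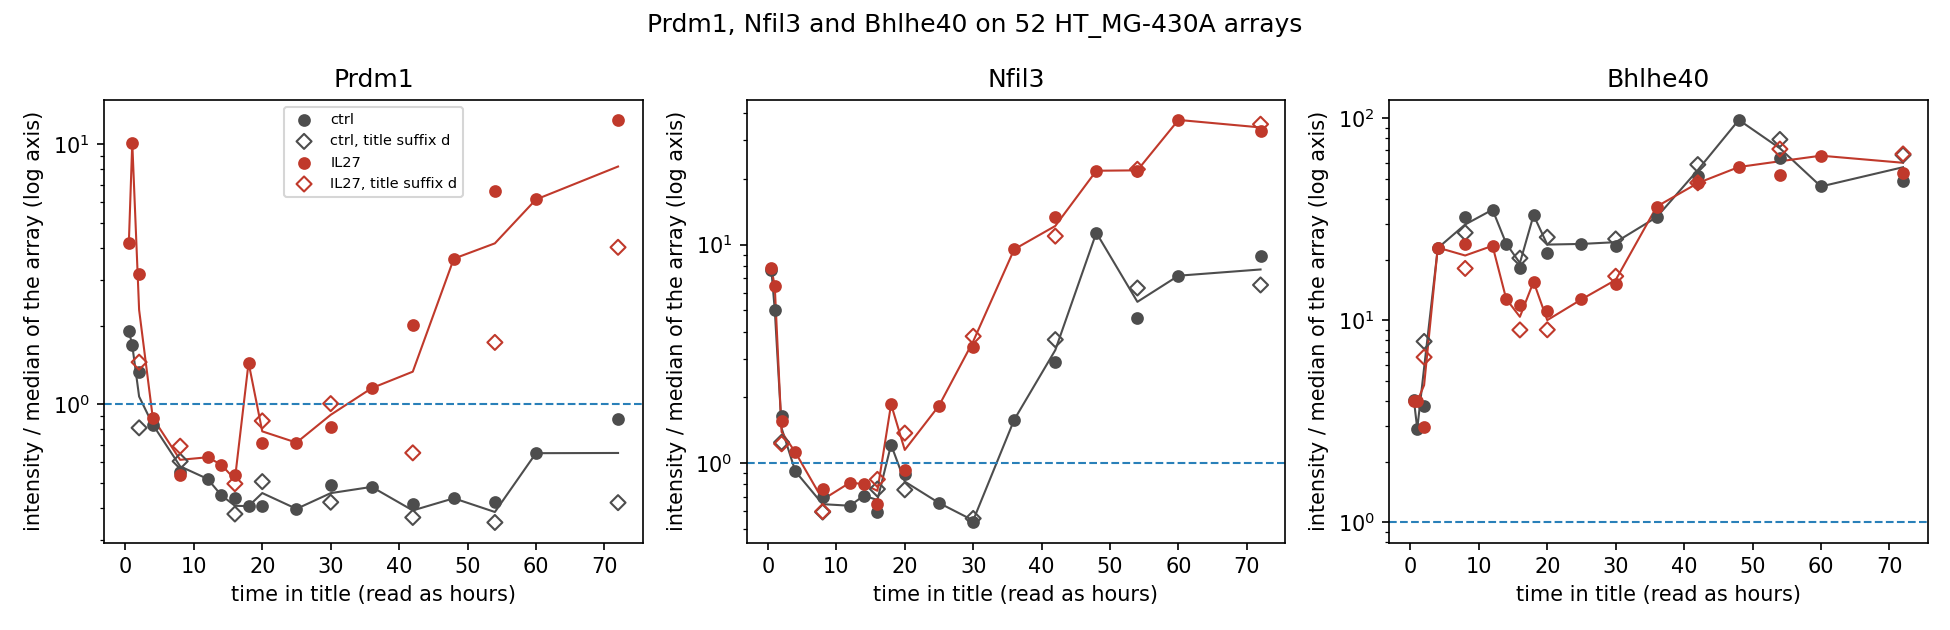
Intensity of Prdm1, Nfil3 and Bhlhe40 divided by the median of the array, on log axes that differ between panels, against the time in the title for 52 HT_MG-430A arrays. Grey is ctrl and red IL27, open diamonds carry the title suffix d, lines join the means of each time, and the dashed line marks the array's median. Prdm1 and Nfil3 are high in the first hour, low from 8 to 20 h and apart between arms at late times, whereas Bhlhe40 is above the median on all arrays and lower with IL27 from 8 to 20 h.

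Bhlhe40 was the one member that was lower with IL-27, and it was so in the middle window. Middle ctrl arrays ran from 580.4 through 828 to 1130 and middle IL27 arrays from 278 through 408 to 751. The ranges overlapped, but the IL27 mean was lower at 6 of 6 times. The difference was -0.86 ± 0.13 (n = 9 per arm, adjusted p = 1.0e-05, limma). The largest single difference was at 20 h, -1.18 ± 0.25 (adjusted p = 0.0058, limma), where ctrl read 707 and 828 and IL27 357 and 288, and it was the only time called.

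Outside that window the arms overlapped. Early ctrl arrays read 131 at 0.5 h, 93.9 at 1 h, 120.4 and 243 at 2 h and 723 at 4 h, and IL27 arrays 131, 128, 95.4 and 184, and 711. Late ctrl arrays ran from 762 through 1792 to 3499 and late IL27 arrays from 415 through 1748 to 2530. The early difference was -0.06 ± 0.17 (adjusted p = 0.99, limma) and the late one -0.24 ± 0.11 (adjusted p = 0.15, limma), lower with IL27 at 5 late times and higher at 3. At 25 and 30 h IL27 values were still the lower ones, 415 against 776 and 502 and 541 against 762 and 839, and neither time was called. The effect was less negative late than middle by 0.62 ± 0.17 (adjusted p = 0.018, limma). That call was lost without the arrays of suffix d (adjusted p = 0.12), within them (adjusted p = 0.17) and without the times 16, 20 or 72 h (adjusted p = 0.052 to 0.083).

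**Figure D3:**
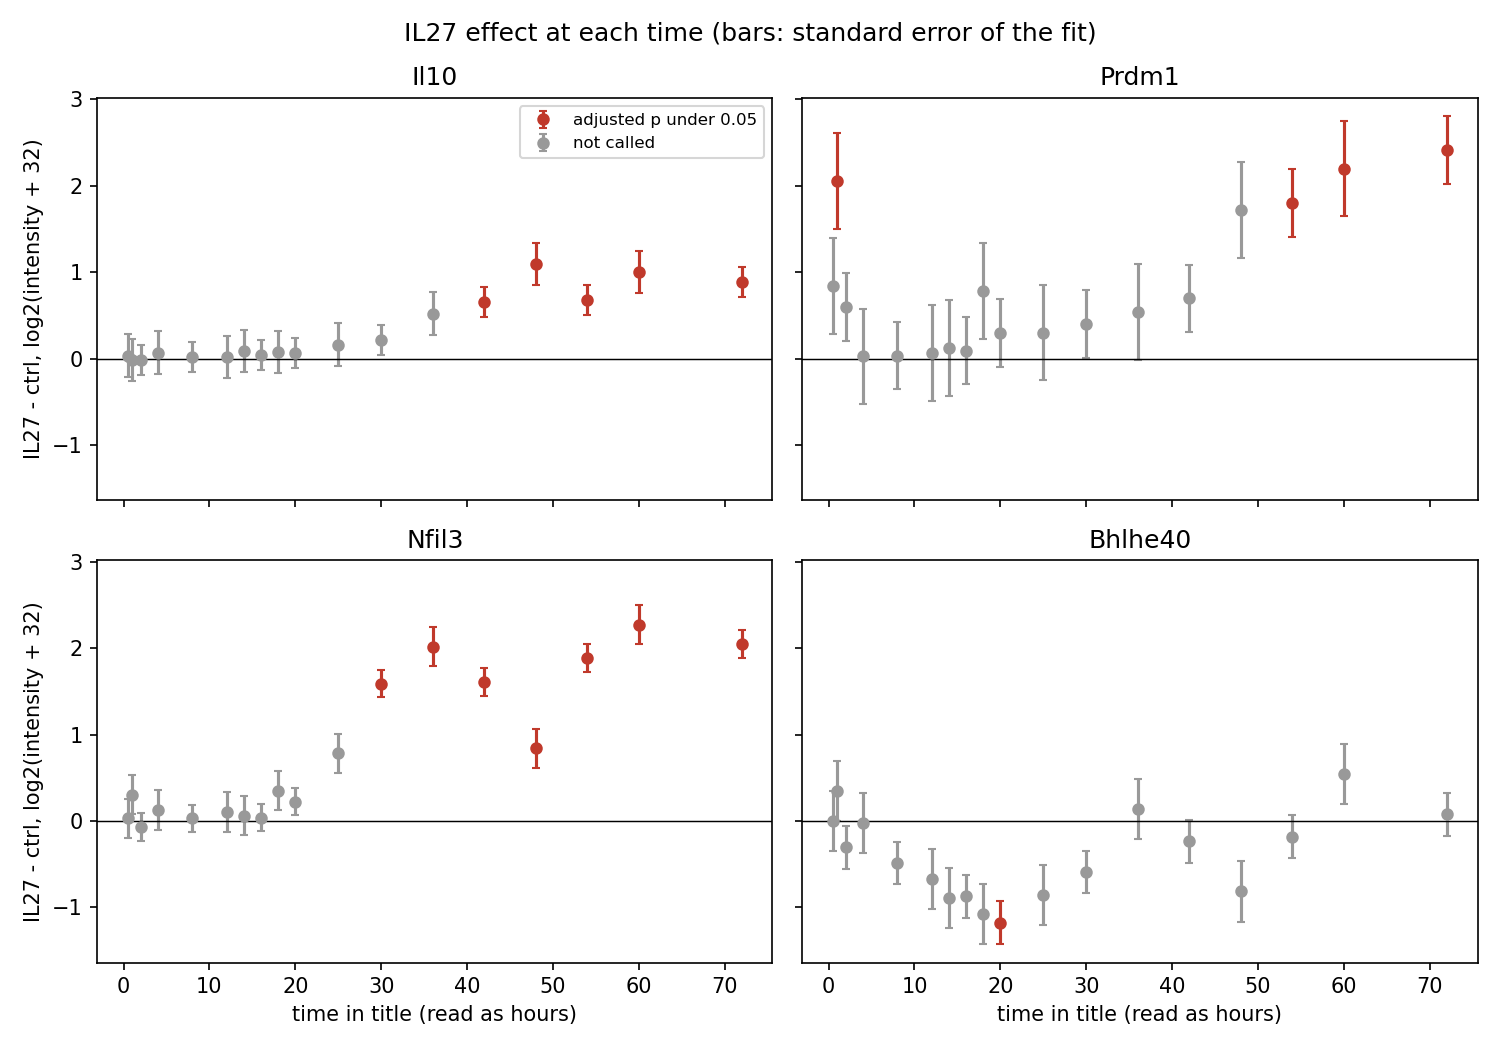
Difference IL27 minus ctrl in log2(intensity + 32) at each of 18 times for Il10, Prdm1, Nfil3 and Bhlhe40, with the standard error of the fit as bars and red for an adjusted p under 0.05 over all genes and times. Il10 is called at 5, Nfil3 at 7 and Prdm1 at 4 times, all higher, and Bhlhe40 at 1 time, lower.

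Within each arm the members moved with time as well. In the ctrl arm Bhlhe40 rose from the early to the middle window by 1.90 ± 0.36 (adjusted p = 4.7e-05, limma) and from middle to late by 0.92 ± 0.28 (adjusted p = 0.0094, limma). Of 6961 genes tested there, 64.9% and 48.1% changed in these steps, so a call in them is common. Nfil3 in the ctrl arm rose from middle to late by 1.42 ± 0.36 (adjusted p = 0.0023, limma), after a difference of -1.03 ± 0.46 from early to middle that narrowly missed the threshold (adjusted p = 0.051, limma). Il10, Prdm1 and Maf lay above the median on fewer than 5 ctrl arrays and were not tested.

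In the IL27 arm Nfil3 rose from middle to late by 2.98 ± 0.43 (adjusted p = 3.6e-06, limma). Bhlhe40 rose by 1.54 ± 0.34 (adjusted p = 0.00045, limma) in the same step, Prdm1 by 1.12 ± 0.35 (adjusted p = 0.0090, limma) and Il10 by 0.58 ± 0.11 (adjusted p = 0.00014, limma). Il10 entered this fit through late arrays alone, and with no filter on low values, a run added after seeing the data, the value was the same (adjusted p = 0.00016). From early to middle Prdm1 fell by 1.25 ± 0.45 on the log2 scale (adjusted p = 0.016, limma) and Bhlhe40 rose by 1.11 ± 0.43 (adjusted p = 0.024, limma). Nfil3 differed by -0.97 ± 0.54 (adjusted p = 0.11, limma) and Il10 by 0.01 ± 0.14 (adjusted p = 0.94, limma) in that step. Of 6954 genes tested in this arm, 68.5% changed from early to middle and 59.9% from middle to late.

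The Mouse430A_2 arrays gave a second look at 4, 16 and 48 h with 1 array per arm. At 48 h Nfil3 read 235 in ctrl and 976 in IL27, and Prdm1 19.3 and 122. At 4 and 16 h Nfil3 read 60.6 and 31.3 in ctrl against 56.8 and 34.4 in IL27, and Prdm1 28.8 and 19.5 against 39.8 and 23.7. Bhlhe40 read 57.6 in the 0 h ctrl array, under its median. At 4, 16 and 48 h it read 791, 1421 and 4320 in ctrl against 1212, 610.3 and 4386 in IL27. The arms were therefore in opposite order at 4 and 16 h and close at 48 h.

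Il10 stayed under the array's median on all 9 of these arrays. It read 17.2 at 0 h, 20.2, 16.1 and 20.2 in ctrl at 4, 16 and 48 h, and 18.8, 17.0 and 23.0 in IL27. The ctrl arrays at 4 and 48 h carried the same deposited value. At 48 h IL27 minus ctrl for Il10 was 0.07 here and 1.10 on HT_MG-430A, with 1 array per arm on each type. The rise of Il10 on HT_MG-430A was thus not seen on this array type. Maf was under the median on all 9 too, between 17.7 and 26.4. Of the members, Bhlhe40 alone was above the median on enough arrays to be tested, with a difference of -0.19 ± 0.29 over the 3 times (adjusted p = 0.88, limma). The fit over 6 arrays leaves 2 residual degrees of freedom and called 0 of 6509 genes, 0.0%, with 478 at an unadjusted p under 0.05.

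On the arrays named GFPP-48 and GFPN-48 Prdm1 read 573 and 267, a ratio of 2.14 that ranked 8 among 6612 genes above the median on either array. A ratio of at least 1.5 with GFPP higher was seen for 47 of these genes, 0.711%. Nfil3 read 1549 and 1201, a ratio of 1.29 with rank 181, and Bhlhe40 3060 and 2910, a ratio of 1.05. Both arrays of this pair read higher than the 48 h IL27 array for Prdm1 and Nfil3 and lower for Bhlhe40. Il10 read 22.2 and 20.6 and Maf 23.4 and 26.4, all under the array's median. With 1 array each these ratios have no replicate check.

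**Figure D4:**
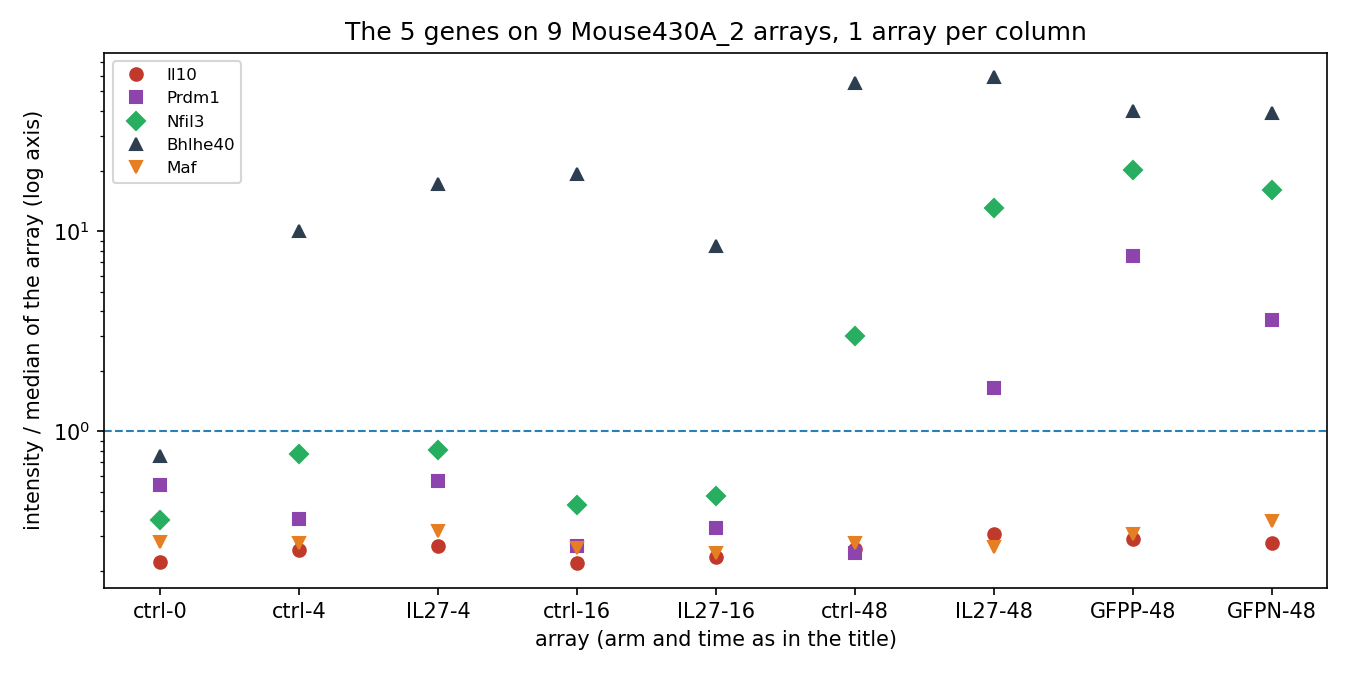
Intensity divided by the median of the array, on a log axis, for the 5 genes on each of 9 Mouse430A_2 arrays, with 1 array per column and no error bar because there is no replicate. Points of 1 gene are compared across columns, not genes with each other. Prdm1 and Nfil3 are above the dashed line of the median at 48 h with IL27 and on GFPP-48 and GFPN-48, and Il10 and Maf are under it on all 9 arrays.

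The genes whose course over the 36 means of arm and time was most like that of Il10 were Hlx (Pearson r = 0.95), a homeobox factor of T helper 1 cells, Plac8 (0.95), Gpm6b (0.94), Selp (0.94), which encodes P-selectin, and Serpinb5 (0.88). Most opposite were Ppic (-0.80), a cyclophilin, Phlda1 (-0.78), Mob1b (-0.74), Ptger4 (-0.72), a prostaglandin receptor, and Nrros (-0.70). Among 7162 genes ranked, Nfil3 came 40 with r = 0.73, Prdm1 140 with r = 0.61 and Bhlhe40 621 with r = 0.44. These are descriptions over means that share arrays and culture time, and no test is attached. In the late window Hlx read 12.8 in ctrl and 46.0 in IL27 as means, and Plac8 41.4 and 1192.

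Of 29 other factors reported to act on Il10 in T cells, 23 were tested. Early, where 2.32% of all genes were called, 4 were higher and 0 lower, with a median difference of -0.03, equal to that of all genes. Tbx21, the T-bet factor of T helper 1 cells, rose by 1.87 ± 0.32 (adjusted p = 0.00031, limma) and Batf, an AP-1 partner of IRF4, by 1.63 ± 0.17 (adjusted p = 7.0e-08, limma). Irf4 (1.13) and Irf1 (1.04) were the others. The call of Tbx21 was lost under 2 settings and those of Irf4 and Irf1 under 4 each, leaving out the arrays at 2 h among them.

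In the middle window, where 10.7% of all genes were called, 10 of the 23 were higher and 2 lower. Their median was 0.25 beside -0.02 for all genes. Tbx21 rose by 2.95 ± 0.24 (adjusted p = 4.7e-11, limma), Irf1 by 1.34, Crem, a cAMP-responsive factor, by 1.22, Batf by 1.12, Jun by 1.09, Junb by 0.89, Stat3 by 0.83 and Egr2 by 0.74. Irf4 (0.52) and Ahr (0.45) were called too. The Irf4 call was lost under 11 settings, no filter and quantile normalization among them, and the Ahr call under 6. Those of Crem and Stat3 were lost within the suffix d arrays. Gata3, the factor of T helper 2 cells, fell by 0.89 on the log2 scale, and Creb1 by 0.32, the call of Creb1 being lost under 7 settings. Late, where 18.5% of all genes were called, 3 were higher and 4 lower, with a median of 0.15 beside -0.01. Ahr, the aryl hydrocarbon receptor, rose by 0.90 ± 0.11 (adjusted p = 5.6e-08, limma), Batf by 0.50 and Junb by 0.51, the call of Junb being lost both without and within the suffix d arrays. Eomes, a T-box factor, fell by 2.25 ± 0.16 on the log2 scale (adjusted p = 2.1e-13, limma), Gata3 by 1.35, Stat4 by 0.32 and Stat6 by 0.21, the calls of Stat4 and Stat6 being lost under 4 and 10 of the settings tried.

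All 9 genes of IL-27 and IL-10 receptor signalling were tested. Socs3, the feedback inhibitor of gp130 receptors, rose by 1.504 ± 0.22 early (adjusted p = 3.1e-05, limma; lost without 2 h), 1.45 ± 0.17 in the middle window (adjusted p = 5.5e-08, limma) and 1.85 ± 0.14 late (adjusted p = 1.5e-12, limma). Socs1, an inhibitor of JAK kinases, rose early by 1.94, a call lost within the suffix d arrays, and in the middle window by 1.40. Late, Socs1 differed by 0.04 ± 0.18 (adjusted p = 0.93, limma). Il6st, which encodes gp130, rose early by 0.59, a call lost under 9 settings. Il27ra rose late by 0.35 and Jak2 by 0.25, the call of Jak2 being lost under 12 settings. Il10rb fell by 0.32 and Tyk2 by 0.19 on the log2 scale in the middle window, calls lost under 4 settings each, and Tyk2 by 0.15 late, lost under 6. In all, 3 were higher and 0 lower early, 2 and 2 in the middle window, and 3 and 1 late. Over all genes 2.32%, 10.7% and 18.5% were called in these windows. The medians of the 9 genes were 0.08, -0.05 and 0.14.

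Of the relatives of IL-10, Il20 and Il24 had a named probe set and neither was tested. Il20 lay under the median on all 52 arrays, and Il24 above it on 1 array of the IL27 arm, at 48.7. Of the small and large Maf relatives, Maff, Mafg and Mafk were tested. Maff rose by 0.79 ± 0.12 in the middle window (adjusted p = 1.0e-05, limma), Mafk rose early by 0.38 and in the middle window by 0.23, and Mafg rose late by 0.19, the calls of Mafk and Mafg being lost under 8 to 10 settings. The median differences of these 3 genes were 0.23, 0.23 and 0.19.

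Of 12 circadian clock genes and relatives of Bhlhe40 and Nfil3, 9 were tested and 0 called in any window by limma. Over all genes 2.32%, 10.7% and 18.5% were called in the windows, so 0 of 9 is not far from these shares. The medians of the 9 genes were -0.08, -0.03 and -0.02. Of 9 genes known as targets or opponents of Prdm1, 6 were tested. Id3, an inhibitor of E proteins, fell by 0.89 early, 1.13 in the middle window and 1.02 late on the log2 scale, the last with SE 0.15 (adjusted p = 2.6e-06, limma). Bcl6, the repressor that opposes Blimp-1, fell early by 0.53 (adjusted p = 0.0086, limma). The early calls were lost under 6 settings for Id3 and 4 for Bcl6, leaving out the arrays at 2 h among them. Cxcr5 rose late by 0.27, a call lost under 14 settings. The medians of these 6 genes were -0.12, 0.11 and -0.01.

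The label of CD4 T cells was checked against markers. All 6 CD4 T cell markers (Cd4, Cd3d, Cd3e, Cd3g, Cd28 and Thy1) were above the median on all 52 arrays, Cd8a on 0 of 52 and Cd8b1 on 52. Some of these markers moved with IL-27. In the middle window, where Bhlhe40 was lower, Thy1 fell by 0.93 on the log2 scale (adjusted p = 8.1e-07, limma), Cd4 by 0.52 (adjusted p = 1.0e-05, limma) and Cd3g by 0.36 (adjusted p = 0.0057, limma). Cd8b1 fell by 0.58 there (adjusted p = 0.00015, limma) and Ighm, an immunoglobulin gene, by 0.65 (adjusted p = 0.012, limma). Early, Cd28 fell by 0.53 (adjusted p = 0.022, limma) and Cd4 by 0.41 (adjusted p = 0.026, limma). Late, Cd8b1 fell by 0.62 (adjusted p = 2.5e-06, limma) and Cd4 by 0.30 (adjusted p = 0.0013, limma), and Cd28 rose by 0.46 (adjusted p = 0.00010, limma). The part of these marker changes in the members' results was not tested. Foxp3, the regulatory T cell factor, was above the array's median on 1 of 26 ctrl and 0 of 26 IL27 arrays. Of the other regulatory T cell markers, Il2ra was above it on 24 of 26 arrays in each arm and Ikzf2 on 0. Prdm1 is also a gene of plasma cells and myeloid cells make Il10, so their markers are given beside the late window. The 2 plasma cell markers on the array summed to 37.1 to 53.8 in late ctrl and 37.7 to 51.0 in late IL27 arrays. The 7 myeloid markers summed to 101 to 197 and 93.7 to 273. Itgam, Adgre1, Cd14 and Fcgr3 were under the median on all 52 arrays. Lyz2 was above it on 5 ctrl and 6 IL27 arrays, Cd68 on 5 and 8 and Csf1r on 1 of each arm. The highest late myeloid sum, 273, was in the 72 h IL27 array with suffix d, and the array without it had 139. Early sums reached 381. The part of myeloid cells in the late values of Il10 and Prdm1 was not tested.

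The 6 B cell markers measured summed to 544 to 2200 in late ctrl and 457 to 1731 in late IL27 arrays. Cd22 and Blnk were under the median on all 52 arrays and Ighm above it on all. Cd79b was above it on 3 ctrl and 4 IL27 arrays, Ms4a1 on 3 of each arm and Cd79a on 1 IL27 array. The 2 NK cell markers summed to 67.1 and 71.6 in the 72 h IL27 arrays and to 28.5 and 30.4 in the ctrl arrays of that time, with Ncr1 under the median on all 52 arrays and Klrc1 above it on 2. At 60 h the NK cell sums were 43.7 in the IL27 array and 32.1 in the ctrl array. Without the 72 h arrays, 1 of the alternatives run, the late differences were 0.59 for Il10 (adjusted p = 5.2e-09), 1.06 for Prdm1 (adjusted p = 9.5e-05) and 1.61 for Nfil3 (adjusted p = 1.8e-14, limma). At 1 h, where Prdm1 was high with IL27, the plasma cell sums were 44.6 in ctrl and 54.1 in IL27, the myeloid sums 166 and 170 and the B cell sums 2214 and 2172. The part of other cells in these results was not tested. The ctrl array at 12 h stood apart from the rest, with a highest correlation to any other array of 0.871 beside 0.977 for the next lowest, and it belongs to the middle window. Without it the middle difference of Bhlhe40 kept its call.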

How the data were processed

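Expression was measured on 61 arrays of mouse CD4 T cells. The deposited tables hold 1 intensity per probe set and array, on a linear scale. The submitters' processing notes name MAS5, without version or settings. Array medians were alike within an array type, so the deposited intensities were used as they are and the array types were tested apart. Probe sets were named from the platform annotation: 20173 matched a single gene and were used, while 942 that matched several genes and 1511 without one were not. For genes with several probe sets the brightest was used.

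Tests ran on log2(intensity + 32) in limma (3.58.1, R 4.3.3), with eBayes and an intensity trend. The model held a term for every time and the IL27 effect of every window, over genes above their array's median on at least 5 arrays (3 on Mouse430A_2). Single times were tested with a mean per arm and time. Each arm was also compared between windows. The fit was tested on simulated data. The members and gene lists were chosen with earlier results of these data known. Likeness to Il10 is Pearson's r over 36 means, and the 5 nearest each way are named. Alternatives were other pseudocounts, filters, normalizations and probe set rules, the suffix d as a block, and arrays or times left out. No 2 arrays were identical. The count of CG dinucleotides was chosen after the sequences were seen.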

Additional observations from a re-analysis of the deposited data

Results flagged for a closer look

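The test of the change of the IL27 effect between windows called 6 results. Late minus early these were 2 of the 4 members tested, where 7.09% of 7163 genes were called. Late minus middle they were 4 of 4, where 8.11% of genes were called. All but the calls of Nfil3 were lost under some of the alternatives given below. Late minus early, the effect of IL27 was larger for Il10 by 0.62 ± 0.14 (adjusted p = 0.0027, limma) and for Nfil3 by 1.62 ± 0.17 (adjusted p = 9.0e-08, limma). Late minus middle, it was larger for Il10 by 0.59 ± 0.11 (adjusted p = 0.00060, limma), for Prdm1 by 1.08 ± 0.31 (adjusted p = 0.021, limma) and for Nfil3 by 1.56 ± 0.14 (adjusted p = 2.5e-09, limma). For Bhlhe40 it was higher late than middle by 0.62 ± 0.17 (adjusted p = 0.018, limma), from lower with IL27 in the middle window to a late difference that was not called. No single group had the 4 arrays that a check for an outlying array needs.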

How the results depend on the processing

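The late differences of Il10 (0.29 to 1.55), Prdm1 (0.75 to 2.18) and Nfil3 (1.32 to 2.06) and the middle difference of Bhlhe40 (-1.04 to -0.76) kept their direction and their call under every alternative that was run for them. All of these alternatives used HT_MG-430A arrays. With genes kept by their mean intensity instead, Il10 and Prdm1 were not tested. Arrays left out did not change the set of genes tested. Of 1017 comparisons of members with an alternative, 987 kept direction and call, 12 reversed, 14 lost a call, 3 gained one and 1 moved. Members under the array's median, Il10 and Maf above all, are limited by signal, and 10 of 18 times have 1 array per arm.

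The reversals were of differences that were not called. Early Bhlhe40 was 0.0049 as a mean of single times, 0.016 without arrays of suffix d, 0.11 without 2 h, and -0.16 to 0.11 with 1 array left out. Early Il10 was -0.058 within suffix d and -0.0022 without 4 h, with -0.0022 to 0.030 with 1 array left out, and early Nfil3 was -0.087 within suffix d. Late minus early Bhlhe40 was 0.090 within suffix d, and Bhlhe40 on Mouse430A_2 0.31 without 16 h. The calls lost were late minus early Il10 within suffix d (0.50) and without 2 h (0.61), and late minus middle Il10 within suffix d (0.41). Late minus middle Prdm1 lost its call without suffix d (1.23), within it (0.78), and without 8 h (1.03), 16 h (1.05), 54 h (0.98) or 72 h (0.86). Late minus middle Bhlhe40 lost it without suffix d (0.54), within it (0.78), and without 16 h (0.62), 20 h (0.53) or 72 h (0.56). Nfil3 gained a call from early to middle with a pseudocount of 1 (-1.61 in ctrl, -1.46 in IL27) and with quantile normalization (-1.05 in ctrl). Prdm1 in GFPP against GFPN moved from 1.02 to 0.87 with a pseudocount of 100.

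Genes called in the early window numbered 59 without suffix d, 106 within it, 11 without 2 h and 97 to 193 with 1 array left out, against 166. In the middle window they numbered 1202 for probe sets tested one by one, 1609 as means of single times, 79 within suffix d, 439 without 16 h and 461 without 20 h, against 764. Within suffix d 399 genes were called late, against 1325. Late minus early numbered 264 without suffix d, 126 within it and 159 without 2 h, against 508. Late minus middle numbered 1168 as means of single times, 334 without suffix d, 37 within it, 369 without 16 h and 331 without 54 h, against 581. On Mouse430A_2, with 1 residual degree of freedom, 91 genes were called without 16 h and 207 without 48 h, against 0. The cause of these changes was not tested where fewer arrays do not account for it by construction. With the suffix d as a block, no member gained or lost a call. The same held with the ctrl and IL27 arrays of each time and suffix paired as a replicate block, a run added after seeing the data (late Il10 0.64, adjusted p = 1.5e-07, limma), although no label says that such arrays were processed together.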

Other observations

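Among paired arrays of the early and middle windows, the one with suffix d was lower in 2 of 4 IL27 pairs for Il10, 2 of 4 for Prdm1 and 3 of 4 for Bhlhe40. In late pairs Bhlhe40 was lower with suffix d in 0 of 4 pairs in either arm. The 2 h pair of the IL27 arm read 101 and 40.6 for Prdm1, without and with the suffix, and that of the ctrl arm 42.3 and 25.0.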
